A study of Caenorhabditis elegans with 12 samples.

Results

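The regions described here are the 279 sites on the X chromosome at which MRG-1 was called in every ChIP sample of the series. They were chosen by merging the deposited peaks of the 6 MRG-1 samples wherever peaks overlapped by at least 1 bp, and by keeping each X site that held a peak of all 6 samples. The merge gave 8226 sites in all, 821 of them on X, so the 279 sites made up 34.0% of the X sites and 7.80% of the 3578 sites that all 6 samples called on any chromosome. MRG-1 ChIP-seq was performed on whole L4 animals of strain SS104 glp-4(bn2) I. (3 replicates) and of N2 (3 replicates), with an antibody from Novus. The strains were kept at 15° and the synchronized larvae were grown at 25° in both groups. As bn2 acts in a temperature-dependent manner, mutants grown at the higher temperature lack a proper germline while wild-type N2 animals have one, so that glp-4(bn2) animals report MRG-1 binding in somatic tissues and N2 animals report binding in soma and germline together. The comparison asks how MRG-1 binding at the shared X sites stands in animals without and with a germline. In whole animals, fewer cells with MRG-1 at a site and less MRG-1 per cell cannot be told apart.

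MRG-1 is the worm member of the MRG15 family, chromodomain proteins that recognise methylated lysine 36 of histone H3 and sit on the bodies of transcribed genes. The X chromosome is a special case in this animal. In germ cells it carries few active genes and is kept largely silent, a state to which MRG-1 is known to contribute, whereas in somatic cells of hermaphrodites both X chromosomes are transcribed and their output is lowered by a condensin-based dosage compensation complex. The left end of X holds the pairing center, through which the X homologs find each other in meiosis. Genes at the sites are not named, since gene models for the ce10 build were not used here.

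The 6 lists held 7303 to 7584 peaks in glp-4(bn2) and 7073 to 7737 in N2. X peaks made up 10.3% to 10.9% of the glp-4(bn2) lists and 6.51% to 7.45% of the N2 lists. How many reads stand behind each list is unknown. The background level of peak calling, recovered from the p-values, was 68.9, 60.6 and 68.9 extended reads per base in glp-4(bn2) replicates 1, 2 and 3, and 96.8, 88.9 and 77.2 in N2 replicates 1, 2 and 3. The level was thus lower for every glp-4(bn2) list than for any N2 list, and the lowest folds were 1.23, 1.24 and 1.25 in glp-4(bn2), against 1.19, 1.23 and 1.19 in N2. The part that this difference plays in the results was not tested. The labels do not say that replicates came from separate cultures, so that p-values measure only the spread between these samples, which may be technical.

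The shared X sites were spread along the whole chromosome. The first ran from chrX:45706-49562 and the last from chrX:17609057-17610105, a span of 17.6 Mb that held 15.9 sites per Mb and of which the sites covered 4.87%. Between 7 and 28 sites started in each window of 1 Mb. The fullest windows were the fifth, with 28 sites, and the fifteenth, with 24, and the 7 sites each of the seventeenth and eighteenth windows were the fewest. Neighbouring X sites lay further apart than autosomal ones. The median gap was 32160.5 bp on X and 4947.5 bp over the 3299 autosomal sites called in all 6 samples, where chromosome V had the widest median gap at 12555 bp and chromosome I the narrowest at 3171 bp. Gaps under 5 kb made up 24.1% of the gaps on X and 50.2% of those on autosomes. The longest stretch of X without such a site was 466 kb and ended at chrX:16332289-16334414. With gaps under 5 kb taken as joining sites, 161 of the 279 sites stood alone and the other 118 formed 51 groups. These groups held 2 sites in 37 cases, 3 in 12 cases and 4 in 2 cases.

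Shared X sites had the smallest median width of the 6 chromosomes. They measured 590 to 11753 bp with a median of 2749 bp and quartiles of 1972.5 and 3810 bp. Autosomal sites had a median of 3159 bp, from 3014.5 bp on chromosome I to 3298.5 bp on chromosome III, and a longer upper tail, with an upper quartile of 6265 bp and a maximum of 59421 bp. In 107 of the 279 X sites (38.4%) each sample called a single peak, compared with 42.6% of autosomal sites.

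The strength of a site was measured within each list. The fold of a peak is its enrichment over the background that the authors' peak caller estimated, and the percentile of a site in a sample is the percentage of that sample's peaks whose fold is no higher than the site's highest one. A percentile is therefore relative to all other peaks of the same list. At the 279 X sites the median percentile was 69.6, 71.9 and 71.2 in glp-4(bn2) replicates 1, 2 and 3, against 54.4, 43.6 and 51.3 in N2 replicates 1, 2 and 3. The strains did not overlap, and N2 replicate 2 was the lowest sample. The autosomal sites showed the other order by a smaller margin, with medians of 70.7, 71.9 and 69.6 in glp-4(bn2) and 74.9, 75.4 and 74.2 in N2. The X medians were therefore close to the autosomal ones in glp-4(bn2) and below them in N2. The upper end of the lists held few X sites in either strain. The 90th percentile was exceeded by 8, 10 and 10 of the 279 X sites in glp-4(bn2) and by 0 in each N2 list, whereas 703, 699 and 709 of the 3299 autosomal sites exceeded it in glp-4(bn2) and 748, 701 and 719 in N2. Below the 25th percentile lay 7, 3 and 4 X sites in glp-4(bn2) and 38, 60 and 47 in N2. By the deposited folds themselves, the median at the X sites was 2.91, 3.41 and 2.96 in glp-4(bn2) and 2.44, 2.14 and 2.35 in N2, while the autosomal medians were 2.98, 3.41 and 2.86 in glp-4(bn2) and 3.65, 3.81 and 3.52 in N2.

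**Figure D1:**
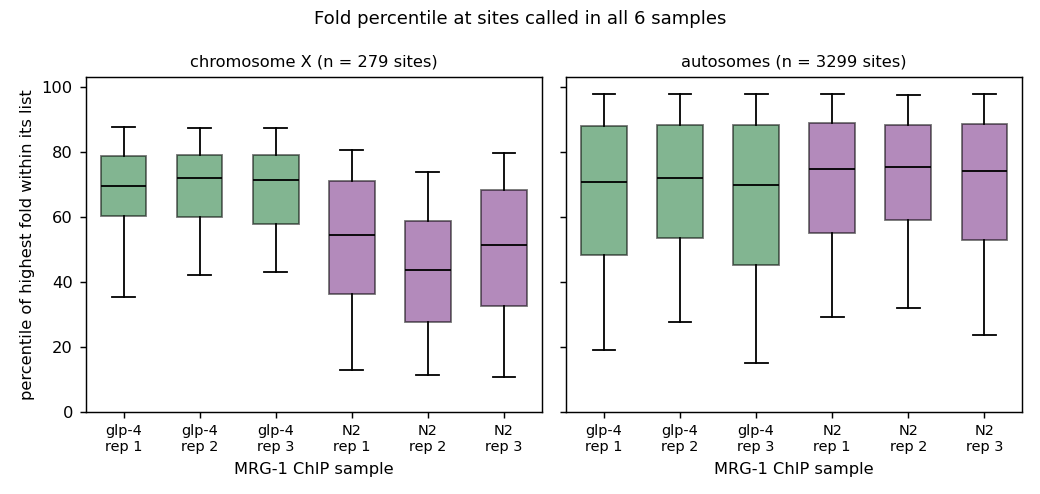
Percentile of the highest fold within its list (y axis, 0 to 100) for the 279 X sites (left) and the 3299 autosomal sites (right) called in all 6 samples, 1 box per sample with glp-4(bn2) in green and N2 in purple (line, median; box, quartiles; whiskers, 5th and 95th percentile of the sites). The 3 glp-4(bn2) medians on X lie between 69.6 and 71.9 and the 3 N2 medians between 43.6 and 54.4, whereas the autosomal medians lie between 69.6 and 75.4 in all 6 samples.

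Site by site, MRG-1 ranked higher in glp-4(bn2) at nearly every shared X site. The mean percentile over the 3 glp-4(bn2) lists exceeded that over the 3 N2 lists at 272 of 279 X sites and was lower at 7. The median difference was 19.0 percentile points, with quartiles of 10.5 and 28.6, compared with a median of -2.15 at autosomal sites. No autosome stood apart from the others, with medians from -2.42 on chromosome IV to -1.55 on chromosome II. In limma fitted over all 3578 shared sites, 139 of the 279 X sites passed a Benjamini-Hochberg adjusted p of 0.05 with a higher percentile in glp-4(bn2) (49.8%), where 9.0% of all sites tested passed in that direction. A single X site (0.358%) passed with a lower percentile, against 8.80% of all sites. X thus held 43.2% of all sites that passed as higher in glp-4(bn2) and 0.317% of those that passed as lower. On single autosomes between 4.59% and 7.61% of sites passed as higher. Without overlap between the strains, the 3 glp-4(bn2) percentiles lay above the 3 N2 percentiles at 194 X sites, against 15.6% of all sites, and below them at 3, against 25.5%. The 139 X sites that passed as higher had differences between 6.41 and 58.3 points, and 133 of the 139 sites that passed in neither direction were also higher on average. The count depends on single samples: 69 X sites passed as higher without glp-4(bn2) replicate 1 and 89 without glp-4(bn2) replicate 3, with 24.2% and 31.8% of the X sites then tested against 3.59% and 5.59% of all sites.

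**Figure D2:**
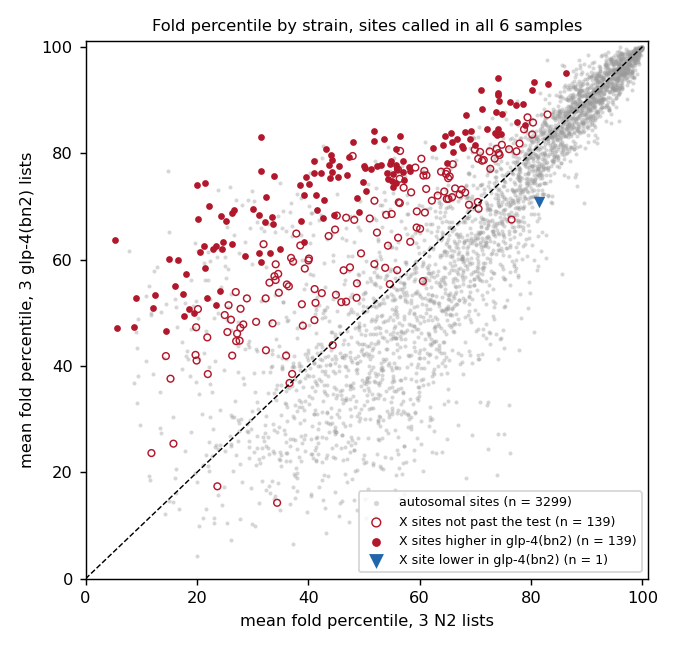
Mean fold percentile over the 3 glp-4(bn2) lists (y axis) against the mean over the 3 N2 lists (x axis) for each site called in all 6 samples, autosomal sites in grey, X sites in red and the X site that was lower in blue, with the line of equal values dashed. The X sites lie above the line at 272 of 279 sites, 139 of them past the test (filled), and the median difference of the grey autosomal sites is -2.15 points.

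The 8 X sites with the largest differences had percentiles of 55.8 to 85.1 in glp-4(bn2) and of 0.135 to 49.3 in N2. At chrX:13915083-13917128 the percentile was 64.6, 65.8 and 60.6 in glp-4(bn2) and 3.41, 11.3 and 1.32 in N2. This was the largest difference on X, 58.3 points (SE 7.22, limma adjusted p = 0.00592), and the folds behind it were 2.65, 2.93 and 2.48 in glp-4(bn2) and 1.43, 1.58 and 1.41 in N2. These folds did not all come from the same position. The summits of the highest peaks lay up to 1506 bp apart over the 6 samples, and all 6 called 15.7% of the width. The next site, chrX:11307100-11308539, had percentiles of 68.8, 76.2 and 76.7 in glp-4(bn2) and of 28.1, 16.1 and 16.1 in N2. It differed by 53.8 points (SE 6.79, limma adjusted p = 0.00592). At chrX:8791933-8795071 the values were 75.7, 73.5 and 74.1 in glp-4(bn2) and 23.7, 4.06 and 36.6 in N2. All 3 glp-4(bn2) samples stood close together there, while the N2 samples were widely spread. The strongest of the 8 in glp-4(bn2) was chrX:9914451-9917603, with percentiles of 82.7, 81.3 and 85.1 in glp-4(bn2) and of 49.3, 44.1 and 1.23 in N2, where replicate 3 was far below the other two. The remaining 4 sites were chrX:9114140-9116594, chrX:4818502-4821323, chrX:16791265-16793061 and chrX:6835356-6838569, with differences of 48.0, 47.6, 45.2 and 45.2 points. Their glp-4(bn2) percentiles ranged from 55.8 to 80.1 and their N2 percentiles from 0.135 to 48.8, and adjusted p-values from limma were between 0.00639 and 0.0173. None of the 8 shared a group of neighbouring sites with another.

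Position along X did not order the differences. Between the distance from the first site and the difference in percentile, Pearson's r was 0.0074 and Spearman's rho -0.0160 across the 279 sites, which all come from the same 6 lists. The median difference was positive in each of the 18 windows of 1 Mb, from 12.3 points in the fifth to 25.9 in the seventh, and between 2 of 7 sites in the last window and 6 of 8 in the second passed as higher. Width was as little related (r = -0.0879, rho = -0.0966). Split by width into 4 classes of 69 or 70 sites, from the narrowest to the widest, they had median differences of 21.1, 18.7, 19.7 and 16.5 points. Sites that were strong in N2 differed less (r = -0.668, rho = -0.688 between the N2 mean and the difference), a relation in which the N2 value enters both measures. Strains ordered the X sites in a similar way, with a correlation of 0.754 (rho = 0.783) between the glp-4(bn2) and N2 means.

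The left end of X was the exception. Of the 7 X sites with a lower mean percentile in glp-4(bn2), 4 were among the first 6 sites, between 45706 and 200915. The other 3 were scattered among the remaining 273 sites. The first site of all, chrX:45706-49562, was the single X site that passed as lower. Its percentile was 67.1, 77.7 and 67.4 in glp-4(bn2) and 82.3, 80.4 and 81.7 in N2, a difference of -10.8 points (SE 3.09, limma adjusted p = 0.0429). Folds there were 2.77, 4.15 and 2.76 in glp-4(bn2), below the 4.94, 4.59 and 4.75 of N2. The adjusted p is close to the threshold, and no X site passed as lower in 5 of the 6 fits that each left out 1 sample, all except that without glp-4(bn2) replicate 2. Nor did any X site pass as lower with a replicate block, without the trend in the prior variance, with length-weighted mean folds or with log2 folds centred on autosomal sites. At chrX:71918-72678 the percentile was 23.1, 3.94 and 15.8 in glp-4(bn2) and 37.3, 32.9 and 33.0 in N2, the most negative difference on X at -20.1 points, which did not pass (SE 7.91, limma adjusted p = 0.106). The site at chrX:200109-200915 gave 68.0, 71.6 and 62.9 in glp-4(bn2) and 77.3, 75.9 and 76.3 in N2, again without overlap and again short of the threshold (difference -8.99, SE 3.01, limma adjusted p = 0.0685). Signs were mixed within the stretch. The sites at chrX:59341-61889 and chrX:161948-164473 were higher in glp-4(bn2), by 7.21 and 2.96 points, and neither passed. The seventh site along X, chrX:226652-231745, had percentiles of 78.6, 82.0 and 78.2 in glp-4(bn2) and of 40.9, 54.7 and 36.6 in N2 (difference 35.5, SE 5.42, limma adjusted p = 0.00643), and the eighth, chrX:236058-241128, differed by 37.6 points in the same direction. Sites outside the 279 were also unevenly divided between the left end and the rest of X. There were 220 X sites that 2 or more glp-4(bn2) lists held and N2 lists lacked, and 1 of them ended at or before 200915. Of the 16 X sites with the mirrored pattern, held by 2 or more N2 lists and lacking in glp-4(bn2), 10 did so. Of all 821 X sites, 28 lay in this stretch. This stretch was singled out after its values had been seen and no test was made of it.

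**Figure D3:**
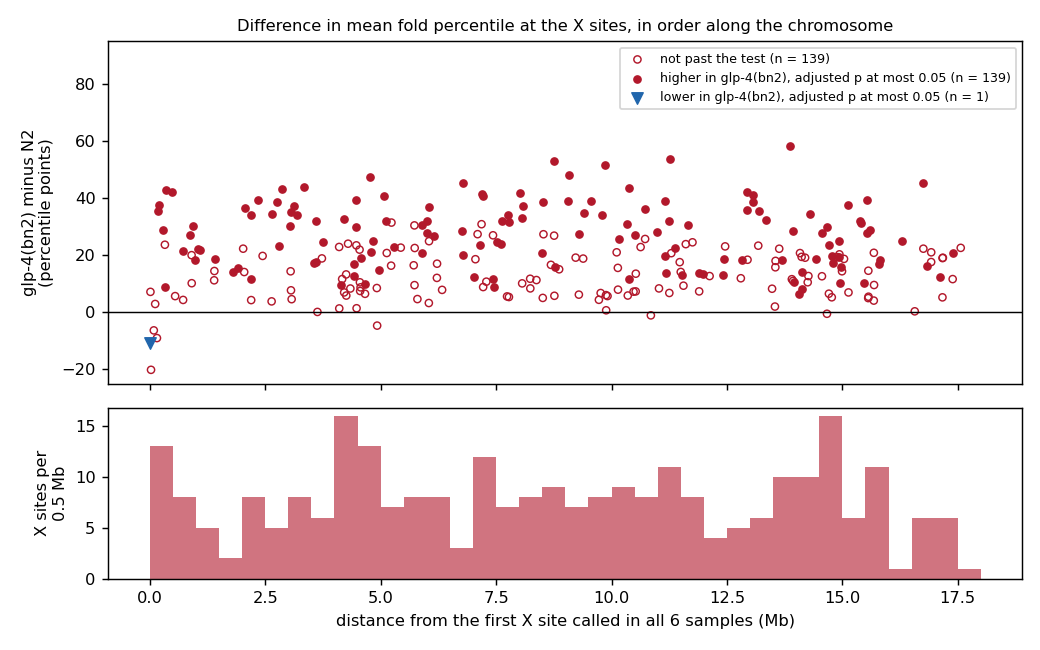
Top, difference in mean fold percentile, glp-4(bn2) minus N2 (y axis, percentile points), for each of the 279 X sites against its distance from the first of them (x axis, Mb), with filled circles for the 139 sites higher and a triangle for the 1 site lower in glp-4(bn2) at an adjusted p of at most 0.05. Bottom, number of sites per 0.5 Mb; values below 0 cluster at the left edge, where 4 of the first 6 sites lie, and 3 of the other 273 sites are below 0.

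The 5 strongest X sites were chosen by their lowest percentile over the 6 lists, which makes them high in both strains by selection. The first was chrX:381163-383001, with 95.8, 94.2 and 95.5 in glp-4(bn2) and 88.2, 84.0 and 86.4 in N2. Its folds were 6.97, 7.82 and 6.34 in glp-4(bn2), which are the highest of any shared X site in replicates 1, 2 and 3, and 6.30, 5.34 and 5.76 in N2, also the highest. Even here the strains did not overlap, and the difference of 8.95 points passed (SE 1.22, limma adjusted p = 0.00636). At chrX:4710012-4715921 the percentile was 94.8, 91.6 and 92.8 in glp-4(bn2) and 85.2, 80.1 and 83.7 in N2, a difference of 10.1 points (SE 1.56, limma adjusted p = 0.00645). The site at chrX:14102246-14107919 had 85.4, 83.9 and 86.5 in glp-4(bn2) and 80.1, 76.9 and 79.7 in N2, 6.41 points apart (SE 1.66, limma adjusted p = 0.0308). The other 2 of the 5 strongest sites were neighbours, chrX:2237493-2240203 and chrX:2241269-2244872. The first of this pair passed with a difference of 11.7 points (SE 1.96, limma adjusted p = 0.00828). The second did not, with 89.96, 86.1 and 85.7 in glp-4(bn2) and 84.9, 80.2 and 83.7 in N2 (4.32 points, SE 1.77, limma adjusted p = 0.118). A further site to their left, chrX:2234208-2236861, belonged to the same group of 3 and behaved unlike its neighbours. It had percentiles of 74.6, 72.8 and 75.3 in glp-4(bn2) and of 30.2, 56.1 and 33.9 in N2, 34.1 points apart (SE 7.16, limma adjusted p = 0.0166).

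Among X sites with a mean percentile over 75, the 3 with the smallest differences in percentile were chrX:161948-164473, chrX:6088917-6092022 and chrX:2683833-2687301. Their differences were 2.96 (SE 2.9998), 3.29 (SE 3.64) and 3.87 points (SE 2.15), with limma adjusted p-values of 0.504, 0.546 and 0.229. At the second of them the percentile was 83.6, 82.5 and 84.4 in glp-4(bn2) and 86.0, 70.3 and 84.3 in N2, so that 2 of the N2 samples were level with glp-4(bn2) and replicate 2 was lower. The called share of the last of them, chrX:2683833-2687301, passed all the same, with 96.2%, 98.5% and 96.1% in glp-4(bn2) and 66.6%, 66.0% and 61.7% in N2 (32.2 points, SE 6.24, limma adjusted p = 0.0107). The first of them belongs to the left end described above.

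**Figure D4:**
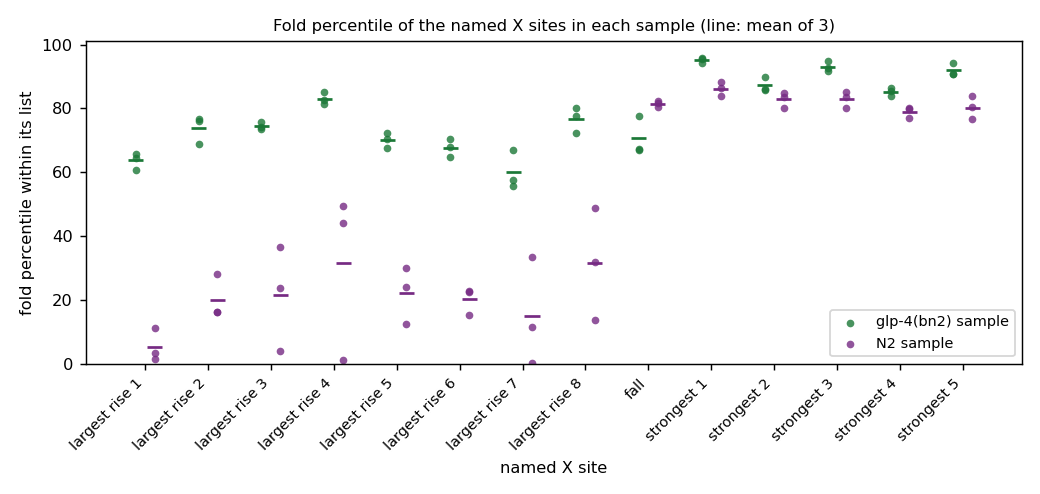
Fold percentile within its list (y axis) of 14 named X sites in each of the 3 glp-4(bn2) samples (green points) and the 3 N2 samples (purple points), with a line at the mean of each strain: the 8 sites with the largest rises, the 1 site that fell and the 5 strongest sites, with rises ordered by the size of the difference and the strongest by their lowest percentile. The 8 rises have N2 points between 0.135 and 49.3, the 5 strongest sites have all points above 76, and only at the fall do the N2 points lie above those of glp-4(bn2).

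The number of bases called moved with the percentile. Within the 279 sites, whose combined width was 0.855 Mb, peaks covered 0.746, 0.806 and 0.750 Mb in glp-4(bn2) replicates 1, 2 and 3 and 0.571, 0.532 and 0.503 Mb in N2 replicates 1, 2 and 3. The autosomal sites went the other way, with 12.3, 13.3 and 11.8 Mb in glp-4(bn2) and 13.97, 14.9 and 13.7 Mb in N2. The median share of an X site's width that was called was 89.9%, 96.3% and 90.2% in glp-4(bn2) and 72.9%, 60.5% and 62.4% in N2. At 265 of the 279 X sites more bases were called on average in glp-4(bn2), and at 14 fewer. By limma on the called share, 134 X sites (48.0%) passed with a larger share in glp-4(bn2), against 6.82% of all sites tested, and 2 X sites passed with a smaller one, against 23.7%. X held 54.9% of the sites with a larger share in glp-4(bn2). The shares of the strains did not overlap at 194 X sites in that direction (10.5% of all sites) and at 3 in the other (35.6% of all sites). Both measures passed as higher at 98 X sites, 41 passed by percentile alone and 36 by share alone. The differences in percentile and in called share were correlated across the 279 sites (r = 0.718). How often both measures passed over all sites was not counted. The count higher by called share rests more heavily on single samples than that of the percentiles. It was 12 without glp-4(bn2) replicate 1 (4.21% of the X sites then tested, against 0.540% of all sites). Without glp-4(bn2) replicate 3 it was 47 (16.8% against 2.24%). It was 83 without N2 replicate 2 (26.9% against 4.05%) and 49 without N2 replicate 3 (16.1% against 2.53%). Without N2 replicate 1, limma called no site on any chromosome in either direction. At an unadjusted p of 0.05, 197 X sites were larger and 2 smaller in glp-4(bn2) in that fit. The share over all sites at the unadjusted p was not counted.

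**Figure D5:**
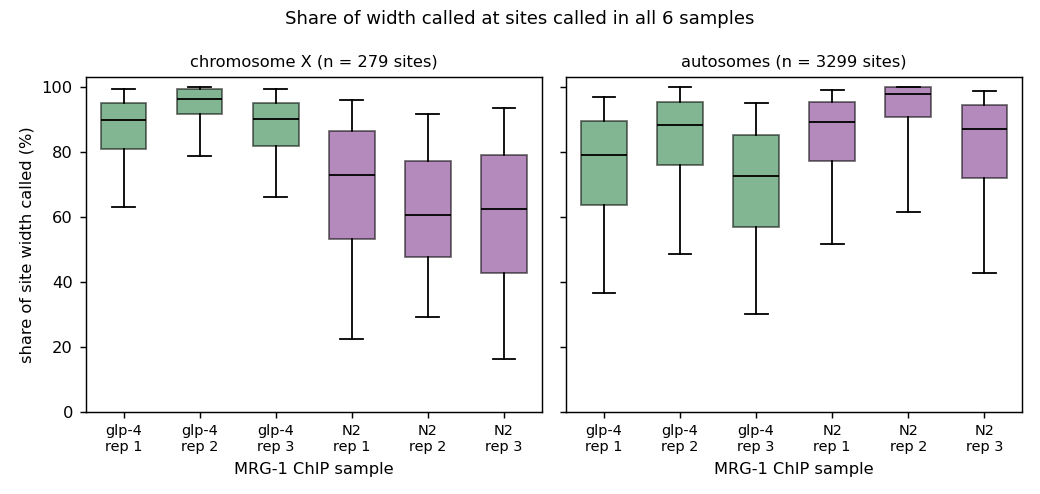
Share of the width of a site covered by the peaks of a sample (y axis, percent) for the 279 X sites (left) and the 3299 autosomal sites (right), 1 box per sample with glp-4(bn2) in green and N2 in purple (line, median; box, quartiles; whiskers, 5th and 95th percentile of the sites). On X the glp-4(bn2) medians lie between 89.9% and 96.3% and the N2 medians between 60.5% and 72.9%, and on autosomes the order is turned, with 72.6% to 88.3% in glp-4(bn2) and 86.9% to 97.8% in N2.

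The largest difference in called share was at chrX:6835356-6838569, a site of 3214 bp that is also among the 8 named above. Its peaks covered 2804, 3214 and 3017 bp in glp-4(bn2) and 350, 438 and 470 bp in N2, or 80.7 points more of the width (SE 12.3, limma adjusted p = 0.0104). At chrX:7246609-7252932, 6324 bp wide, the peaks covered 4523, 5977 and 5934 bp in glp-4(bn2) and 688, 1095 and 672 bp in N2. The difference of 73.7 points passed as well (SE 13.8, limma adjusted p = 0.0104), and the percentiles were 43.7, 39.0 and 58.6 in glp-4(bn2) and 1.85, 13.7 and 1.67 in N2. No base of this site was called in all 6 samples. The third was chrX:9114140-9116594, with 2081, 2455 and 2206 bp in glp-4(bn2) and 359, 1174 and 354 bp in N2. At each of these sites every N2 sample called fewer bases than any glp-4(bn2) sample. The 2 sites with a smaller share in glp-4(bn2) were both at the left end. The first X site had 1233, 1506 and 888 bp called in glp-4(bn2) and 3277, 3747 and 3509 bp in N2, a difference of -59.7 points (SE 11.02, limma adjusted p = 0.0104). At chrX:71918-72678 peaks covered 449, 474 and 338 bp in glp-4(bn2) and 674, 738 and 665 bp in N2, a difference of -35.7 points (SE 8.78, limma adjusted p = 0.0178).

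Stretches called in a single strain were counted inside the sites as well. A stretch of at least 150 bp that at least 2 glp-4(bn2) samples and no N2 sample called was found in 171 of the 279 X sites (61.3%), against 11.9% of all sites called in all 6 samples. The mirrored stretch, called in at least 2 N2 samples only, was found in 4 X sites (1.43%), against 36.1% of all sites. Bases called in this way were also summed over stretches of any length, including those under 150 bp. Within X sites they came to 145 kb for glp-4(bn2) and 4.03 kb for N2. Within the autosomal sites they came to 175 kb for glp-4(bn2) and 1298.5 kb for N2. The first X site alone contributed 2011 bp of the N2 sum on X. The bases that all 6 samples called made up a median of 47.5% of the width of an X site and 62.6% of that of an autosomal site. In 3 X sites no base was called in all 6 samples, since peaks of different samples were joined through others.

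The 4 widest X sites differed among themselves. The widest, chrX:9810448-9822200 at 11753 bp, had percentiles of 55.5, 50.4 and 60.7 in glp-4(bn2) and of 50.5, 43.9 and 51.8 in N2. Neither the percentile nor the share passed there (limma adjusted p = 0.439 and 0.0605). At the second widest, chrX:11522674-11533024, the peaks covered 8152, 8994 and 9710 bp in glp-4(bn2) and 3193, 2113 and 2210 bp in N2, 62.3 points more of the width (SE 12.1, limma adjusted p = 0.0109), whereas its percentile did not pass. Its bases called by 2 or more glp-4(bn2) samples alone came to 4875 bp, the most of any X site. The third, chrX:4844321-4853183, passed on both measures, with percentiles of 75.5, 75.2 and 80.5 in glp-4(bn2) and of 56.1, 54.4 and 57.4 in N2 (difference 21.1, SE 3.49, limma adjusted p = 0.00794). In the fourth, chrX:3117490-3125763, the percentile was 68.2, 42.1 and 65.0 in glp-4(bn2) and 55.4, 48.1 and 57.9 in N2, and the strains overlapped. Its called share did pass, with 96.5%, 99.8% and 99.3% in glp-4(bn2) and 94.1%, 85.3% and 93.4% in N2 (7.60 points, SE 2.54, limma adjusted p = 0.0468).

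The densest 500 kb of X ran from 4146314 to 4619617 and held 21 of the 279 sites. Each of the 21 had a higher mean percentile in glp-4(bn2), by 1.39 to 39.3 points with a median of 12.9. The strongest was chrX:4467942-4471644, with 93.9, 93.2 and 93.1 in glp-4(bn2) and 84.2, 75.4 and 81.8 in N2 (difference 12.9, SE 2.07, limma adjusted p = 0.00716). Next to it lay chrX:4457955-4462513, with 89.3, 92.3 and 91.4 in glp-4(bn2) and 77.3, 66.2 and 78.7 in N2 (difference 16.9, SE 3.05, limma adjusted p = 0.0102). A group of 4 sites within 12341 bp showed how close neighbours can part. At chrX:4517147-4518677 the percentile was 60.3, 59.0 and 52.7 in glp-4(bn2) and 9.25, 32.5 and 12.4 in N2, the largest difference of the window. The site at chrX:4524192-4526478 had 66.0, 68.8 and 76.1 in glp-4(bn2) and 75.1, 56.4 and 75.1 in N2, with the strains overlapping and a difference of 1.45 points (SE 5.40). A single sample set the smallest difference of the window. At chrX:4149038-4150659 glp-4(bn2) replicate 2 had a percentile of 9.71 against 57.1 and 48.7 in replicates 1 and 3, and N2 had 44.5, 38.0 and 28.7. The share called at this site nevertheless passed, with 35.7 points more in glp-4(bn2) (SE 8.74, limma adjusted p = 0.0177).

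The top summit of a site, the position of its highest peak in a sample, lay within 300 bp over all 6 samples at 116 X sites (41.6%), compared with 50.9% of autosomal sites. The median spread over the samples was 408 bp on X and 286 bp on autosomes. Within a strain, the median spread at X sites was 188 bp over the glp-4(bn2) samples and 204 bp over the N2 samples. On autosomes it was 161 bp in glp-4(bn2) and 111 bp in N2. Summits were more than 1000 bp apart at 65 X sites, and within 100 bp at 24. The closest agreement, found by sorting on this measure, was at chrX:10197492-10200355, where all 6 summits fell within 18 bp, between 10198015 and 10198033. Its percentile was nevertheless 76.1, 76.8 and 78.1 in glp-4(bn2) and 46.6, 55.1 and 51.8 in N2 (difference 25.8, SE 3.97, limma adjusted p = 0.00645).

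Near the shared X sites, sites called in a single strain were mostly of the glp-4(bn2) kind. The same held on X as a whole, with 220 sites of the glp-4(bn2) kind and 16 of the N2 kind. Whether either kind lay closer to the shared sites than its number on X gives was not tested. A site held by 2 or more glp-4(bn2) lists and lacking in N2 lay within 5 kb of 55 of the 279 X sites (19.7%), and of 5.12% of autosomal sites. A site held by 2 or more N2 lists and lacking in glp-4(bn2) lay within 5 kb of 5 X sites (1.79%), and of 24.9% of autosomal sites.

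The rule that chose the sites asks for a call in every sample, so each fold had to pass its list's threshold. Just inside it, the 3 X sites with the lowest highest percentile were chrX:71918-72678, described above, chrX:8283524-8285190 and chrX:15731786-15733865. The second of these had percentiles of 15.1, 37.5 and 18.3 in glp-4(bn2) and of 21.6, 6.81 and 7.13 in N2, and the third had 39.9, 21.2 and 15.1 in glp-4(bn2) and 20.6, 16.1 and 10.7 in N2. Just outside it were 60 X sites called in exactly 5 samples, and the missing sample was glp-4(bn2) replicate 1 in 2 cases and N2 replicates 1, 2 and 3 in 5, 28 and 25. These 60 sites were ranked by the median percentile over the 5 calling samples, which favours high glp-4(bn2) values where an N2 sample is missing. The strongest of them, chrX:1452754-1453958, had percentiles of 71.7, 76.0 and 77.5 in glp-4(bn2) and of 39.0 and 49.1 in N2 replicates 1 and 2. It was followed by chrX:5205619-5206990, with 61.8, 74.6 and 68.9 in glp-4(bn2) and 40.6 and 37.1 in N2 replicates 1 and 3, and by chrX:12394044-12396984, with 68.4, 67.5 and 61.2 in glp-4(bn2) and 40.9 and 27.2 in N2 replicates 1 and 2. The last of the 279 sites along X, chrX:17609057-17610105, had percentiles of 63.0, 42.1 and 61.8 in glp-4(bn2) and of 39.9, 34.9 and 24.2 in N2, a difference of 22.6 points that did not pass (SE 8.33, limma adjusted p = 0.0900).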

How the data were processed

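MRG-1 ChIP-seq of 3 glp-4(bn2) and 3 N2 samples was analysed; the 6 inputs were not used here. Per the submitters' notes and methods, the authors used bowtie2 (2.3.2) for alignment to ce10, then called peaks per replicate with MACS2 (2.1.0; q-value 0.05, no model, reads extended to 300 bp); the control is not named in the sources used here. Each deposited list gives the fold enrichment (a linear ratio), the −log10 of the p-value and q-value and a score that is a multiple of the −log10 q-value. The deposited fold was ranked within its list. Peaks overlapping by at least 1 bp were merged, and nothing else was filtered.

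Percentiles and called shares were fitted with limma (3.58.1, R 4.3.3; trended prior variance) over all 3578 sites called in all 6 samples, glp-4(bn2) minus N2, with Benjamini-Hochberg adjustment over these sites; the fit was tested on simulated data. Values over the 279 sites carry no test. The background level of a list was taken as the Poisson mean whose whole-number tail probabilities matched the largest share of the list's p-values (72.9% to 80.2%; −log10 up to 60, tolerance 1e-04). Python 3.11.15, pandas 2.3.3 and scipy 1.17.1 were used.

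The members, lists and tests were chosen with earlier results of these data known. Sites named are the 8 largest percentile differences past the test without overlap in each direction, the 5 with the highest lowest percentile, the 4 widest, the 3 just inside and outside the rule, the first and last, those of the densest 500 kb, the 3 largest share differences in each direction, and the 3 smallest differences above a mean percentile of 75; the left end, the neighbours discussed with a named site and the closest summits were added after their values were seen. Alternatives were stricter q-values, another overlap, windows around summits, equal numbers of peaks, log2 folds, other rankings, a replicate block and leaving out each sample. Genes and sequences are not given, since no genome of the ce10 build was used here.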

Additional observations from a re-analysis of the deposited data

How the results depend on the processing

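Among 64 recalculations that used every sample, 52 lay within 1.5 times the count, within the 95% binomial interval of a median over sites, or within 1 SD of the sample medians. Among 54 that omitted 1 sample, 35 did so. Median differences on the log2 fold scale have another unit and were counted as outside without a comparison. A count of 1 that becomes 0 or 2 always lies outside. A direction was assessed only for the median percentile difference over the X sites, which stayed positive in each of its recalculations. The counts, widths, gaps and summit spreads have no direction to reverse. On the log2 fold scale the median difference over the X sites was 0.57 centred on all shared sites, 0.65 centred on autosomal sites and 0.40 not centred, where all sites shifted by -0.17; centred on autosomal sites, 221 X sites passed as higher (all 139 among them) and 0 as lower (1 at an unadjusted p of 0.05). The centring moves the split over all sites, which was 322 higher and 315 lower by percentile, 440 and 243 for log2 folds centred on all sites, 607 and 123 centred on autosomes and 272 and 605 not centred. The 1 X site lower by percentile became 0 by limma with a replicate block (3 at an unadjusted p of 0.05), 0 without the trend (3) and 0 by length-weighted mean folds (2), and became 2 with folds not centred and at a q-value of at most 1e-05. Windows around summits gave a median width of 770 bp and a median gap of 45897.5 bp; the cause of these changes was not tested.

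Without 1 sample, the X sites numbered 280 to 308, the percentile difference had a median of 15.0 to 20.7 points, the lowest without N2 replicate 2, and 69 to 132 X sites passed as higher and 0 to 1 as lower. Of all sites tested in those fits, 3.59% to 7.90% passed as higher by percentile and 1.90% to 7.28% as lower. By called share, 0 to 98 X sites passed as higher, where 0% to 4.80% of all sites did. As lower by called share, 0 to 4 X sites passed, where 0% to 30.2% of all sites did. The median width was 2405 to 2709 bp. These fits keep 2 samples of a strain, and the cause of the smaller counts was not tested.

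Samples share replicate numbers across the strains. The deviations of same-numbered samples had correlations of -0.0244, 0.117 and 0.0771 for numbers 1, 2 and 3. Samples of unlike number gave -0.128 to 0.0442, so numbers 2 and 3 lay above every unlike pair and number 1 did not. As same-numbered samples did not deviate together at every number, the numbers were not taken to pair them. With a replicate block 134 X sites passed as higher by percentile (48.0%, against 8.05% of all sites). By called share, 158 X sites passed as higher (56.6%, against 8.66% of all sites) and 2 as lower (0.717%, against 30.8%). Depth is known only through the recovered background level, and a site weaker than the threshold of any 1 list is outside the set.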
